A study of Gallus gallus with 66 samples.

Results

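Expression of the lipid droplet coat genes PLIN1, PLIN2 and CIDEC was followed in preadipocytes of a fat and a lean chicken line. The members were all probe sets that the platform annotation maps to one of these genes alone, which gave 7 of 38535 probe sets on the array, 4 for PLIN1, 2 for PLIN2 and 1 for CIDEC. The series held 66 arrays in 22 groups of 3. In each line abdominal fat from 15 male birds, 10 days of age, was pooled and digested with collagenase. Centrifugation then took off the floating adipocytes, and lysis the red cells. Per line, the 11 groups comprised cells that were never cultured, cells passaged once and taken at 50% confluence (−12 h in the labels) or 95% confluence (0 h), and cells kept for 12, 24, 72 or 120 h from then in 160 µg/ml oleate or, as control, in culture without oleate. Oleate is the salt of a monounsaturated fatty acid. The lines are named by abdominal fat content, and the labels do not say whether the 3 arrays of a group came from separate pools, dishes or days. The p-values below therefore measure the spread between these arrays, which may be technical.

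A lipid droplet is a store of neutral lipid inside a cell, enclosed by a single layer of phospholipid to which coat proteins bind. In mammals, perilipin 1 (PLIN1) coats the droplets of adipocytes and restrains their lipolysis, perilipin 2 (PLIN2, also called adipophilin) coats droplets in most cell types and is degraded when it is not bound to one, and CIDEC (also called FSP27) gathers where droplets touch and promotes their fusion in adipocytes. In mammals, genes of these proteins are targets of peroxisome proliferator-activated receptors (PPARs), nuclear receptors that bind fatty acids.

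Levels are given as the deposited values, taken as log2 and nearly equal in distribution on every array, with a median of 4.17. A probe set was tested only if it stood above the array median on all 3 arrays of at least 1 group, and a difference was called at an adjusted p under 0.05 (limma, Benjamini-Hochberg over 22060 probe sets). Of the 7 probe sets, 4 passed this filter on low values. Both PLIN2 probe sets and the CIDEC probe set stood above the array median on 66 of 66 arrays. The PLIN1 probe sets did so on 0 to 19 of 66, and only 1 of them was tested. PLIN2 below means its probe set with the higher mean over all arrays (10.52), and the lower-reading one (mean 7.72) is given beside it. In these mixed-cell samples a smaller share of cells of a type and less RNA per cell cannot be told apart.

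PLIN2 was higher with oleate at every hour in both lines. In fat-line oleate cultures PLIN2 read 11.74, 11.55 and 11.93 at 12 h, 11.87, 11.67 and 11.25 at 24 h, 11.60, 11.51 and 11.27 at 72 h, and 11.47, 11.19 and 11.54 at 120 h. In fat-line control cultures it read 9.78, 9.63 and 10.01 at 12 h, 9.58, 9.63 and 9.80 at 24 h, 9.69, 9.40 and 9.75 at 72 h, and 9.53, 9.47 and 9.38 at 120 h. All 12 oleate arrays of the fat line stood above all 12 control arrays, with a wide gap between them. In lean-line oleate cultures PLIN2 read 11.81, 11.03 and 11.75 at 12 h, 11.23, 10.34 and 11.29 at 24 h, 10.80, 10.02 and 10.90 at 72 h, and 10.90, 10.04 and 11.71 at 120 h. In lean-line control cultures it read 9.20, 9.36 and 9.19 at 12 h, 9.12, 9.33 and 9.06 at 24 h, 9.23, 9.21 and 9.03 at 72 h, and 8.87, 8.97 and 9.59 at 120 h. The lean oleate arrays also lay above every lean control array, but they scattered more than those of the fat line, and replicate 2 was the lowest of its group at each of the 4 hours.

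**Figure D1:**
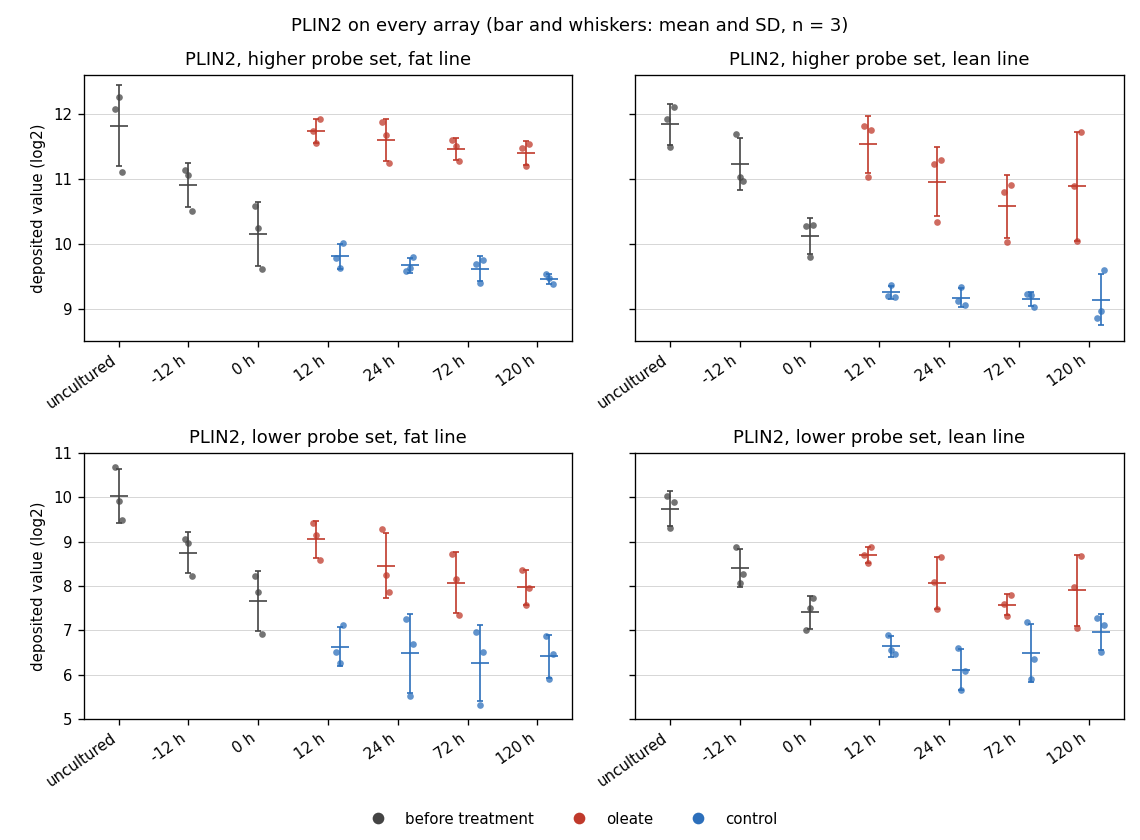
PLIN2 level (log2) on every array in each of the 22 groups, fat line beside lean line, with the hour or stage along the horizontal axis and oleate left of control at each hour. Points are single arrays, and bars with whiskers are group means with the SD (n = 3), for each of the 2 probe sets. For the higher probe set the 24 oleate arrays lie between 10.02 and 11.93 and the 24 control arrays between 8.87 and 10.01.

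Averaged over both lines and the 4 hours, PLIN2 stood at 11.27 with oleate and 9.41 in control, a log2 difference of 1.86 ± 0.10 (SE, 95% interval 1.65 to 2.07, adjusted p = 5.04e-20 by limma), which is 3.63-fold if the deposited values are log2. In this comparison 35% of tested probe sets were called, so a call by itself is common, and PLIN2 ranked 15 of 22060 by the size of the rise. The rise was 1.91 ± 0.15 in the fat line (adjusted p = 1.67e-14, 25.5% of probe sets called) and 1.81 ± 0.15 in the lean line (adjusted p = 8.48e-14, 20.3% called). Oleate arrays did not overlap control arrays in 8 of 8 pairs of groups matched for line and hour. How many of all probe sets stand clear in this way was not counted. This count and the like counts below therefore have no background beside them.

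By hour in the fat line, the PLIN2 rise was 1.93 at 12 h (adjusted p = 1.18e-05, 6.39% of probe sets called), 1.93 at 24 h (1.65e-05, 3.25%), 1.85 at 72 h (3.13e-05, 4.67%) and 1.94 at 120 h (1.66e-05, 3.28%), each with an SE of 0.29. In the lean line it was 2.28 at 12 h (adjusted p = 5.89e-06, 3.38% called), 1.78 at 24 h (8.94e-05, 2.2%), 1.42 at 72 h (0.0017, 2%) and 1.74 at 120 h (3.56e-05, 4.96%). On this probe set the rises at the 4 hours lay close together in the fat line and farther apart in the lean line. Differences between hours within a line were not tested, nor was this contrast between the lines. Averaged over the hours, the oleate effect differed between the lines by 0.11 ± 0.21 (fat minus lean, adjusted p = 0.856, 1.85% called). Averaged over the lines, it changed by −0.26 ± 0.29 between 12 and 120 h (120 h minus 12 h, adjusted p = 0.904, 0.304% called).

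The lower-reading PLIN2 probe set gave the same direction. In fat-line oleate cultures it read 9.42, 9.14 and 8.59 at 12 h, 9.28, 8.24 and 7.85 at 24 h, 8.72, 8.15 and 7.36 at 72 h, and 8.36, 7.58 and 7.96 at 120 h. In fat-line control cultures it read 6.52, 6.27 and 7.12 at 12 h, 7.26, 5.51 and 6.69 at 24 h, 6.97, 5.31 and 6.52 at 72 h, and 6.89, 5.91 and 6.46 at 120 h. Within each hour of the fat line every oleate array was above every control array, and replicate 2 was the lowest of the control arrays at each hour. In lean-line oleate cultures it read 8.71, 8.51 and 8.88 at 12 h, 8.09, 7.47 and 8.65 at 24 h, 7.59, 7.34 and 7.81 at 72 h, and 7.97, 7.06 and 8.67 at 120 h. In lean-line control cultures it read 6.90, 6.56 and 6.46 at 12 h, 6.59, 5.67 and 6.09 at 24 h, 7.19, 5.90 and 6.37 at 72 h, and 7.29, 6.52 and 7.11 at 120 h. The lean groups overlapped at 120 h, so that oleate stood clear of control in 7 of 8 pairs of groups.

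On this probe set the oleate effect was 1.72 ± 0.16 (8.23 with oleate, 6.504 in control, adjusted p = 8.73e-13 by limma). It was 1.94 in the fat line (adjusted p = 1.68e-09) and 1.51 in the lean line (adjusted p = 7.26e-07). In the fat line it passed the test at 12 h (2.42, adjusted p = 0.00022), 24 h (1.97, 0.00416), 72 h (1.81, 0.00834) and 120 h (1.55, 0.0356). In the lean line it passed at 12 h (2.06, 0.00399) and 24 h (1.95, 0.00625), while 72 h gave 1.09 (0.265) and 120 h gave 0.93 (0.269), each hour with an SE of 0.44. The fat-line rises thus also lay apart here, from 2.42 at 12 h to 1.55 at 120 h, unlike on the representative probe set. The change of the effect between 12 and 120 h was −0.999 ± 0.44 and was not called (adjusted p = 0.547). Over the 22 group means, which share normalization and platform, the 2 PLIN2 probe sets correlated with an r of 0.921.

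**Figure D2:**
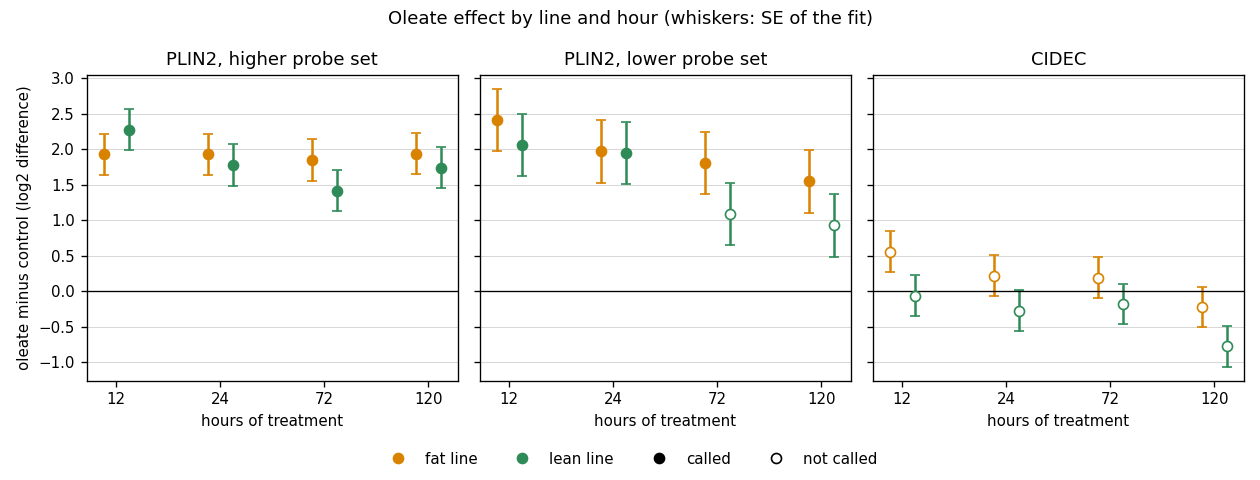
Log2 difference of oleate minus control at each hour in each line, for the 2 PLIN2 probe sets and CIDEC, with whiskers of 1 SE of the fit. Filled points were called and open points were not; both PLIN2 panels lie above 0 at every hour, while CIDEC lies on both sides of 0, from 0.56 in the fat line at 12 h to −0.78 in the lean line at 120 h.

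In the labels, array names follow 2 styles, and oleate against control is also a contrast of these styles. All 24 control arrays of 12 to 120 h and the 3 fat-line arrays at −12 h have names joined by a low bar, and the rest have dotted names, apart from 1 fat oleate array at 120 h with no name. The 36 poly-A spike-in probe sets, which read RNA added during preparation, were lower with oleate than in control in 36 of 36 cases, with a median log2 difference of −0.60. Oleate and name style cannot be told apart in this contrast, and the part of the spike-in difference in the PLIN2 result was not tested. Oleate cultures at 12 h and cultures at 0 h have the same name style, and between them none of the 36 spike-in probe sets was called (median 0.03). PLIN2 was higher there too: 11.63 in oleate at 12 h and 10.13 at 0 h, a difference of 1.499 ± 0.21 (adjusted p = 1.52e-05 by limma). In that comparison 0.549% of probe sets were called, and PLIN2 ranked 10 of 22060 by the size of the rise and 5 by p. The 2 groups also differ by 12 h in culture, so this rise by itself cannot be assigned to oleate.

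At 0 h PLIN2 read 10.58, 10.25 and 9.62 in the fat line and 10.28, 9.79 and 10.28 in the lean line, and all 6 of these arrays lay below all 6 oleate arrays at 12 h. By line, oleate at 12 h exceeded 0 h by 1.59 in the fat line (adjusted p = 0.00706, 0.154% of probe sets called) and by 1.41 in the lean line (adjusted p = 0.0683, 0.0181% called). Same-numbered arrays at 0 h and 12 h of oleate deviated together, and with the replicate number as a block the lean rise was called (1.41 ± 0.25, adjusted p = 0.00651, 11 probe sets called against 4) and the fat rise stayed called (adjusted p = 0.000746, 52 against 34). Without the block the fat call was lost without fat 0 h replicate 3 or fat oleate 12 h replicate 3 (1.32 to 1.80 over single arrays left out), and the lean rise was called without lean oleate 12 h replicate 2 (adjusted p = 0.0306, 1.25 to 1.66). On the lower-reading probe set the rise was 1.33 ± 0.31 over both lines (adjusted p = 0.0249). That call was lost without any 1 of 6 of the 12 arrays, with differences of 1.14 to 1.47. This comparison shares its oleate arrays with the oleate effect, so the 2 are not independent. Control cultures at 12 h stood 0.60 below 0 h, at 9.53 in control and 10.13 at 0 h (−0.60, adjusted p = 0.0351, 17.5% called). That call was lost without any 1 of 8 of the 12 arrays, with differences of −0.74 to −0.50, and it sets the 2 name styles against each other. At 120 h oleate cultures remained above 0 h by 1.01 (adjusted p = 0.000498, 17.9% called), with 0.39 on the other PLIN2 probe set (adjusted p = 0.429).

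The fat minus lean difference of the confluence effect sets the name styles apart without oleate, since among cultures at −12 h and 0 h only the fat −12 h arrays carry the low bar. For PLIN2 it was 0.36 ± 0.41 (adjusted p = 0.831, 2.71% called), against −0.69 in the median spike-in probe set. With that difference subtracted, as an alternative added after the values were seen, the PLIN2 oleate effect was 1.503 ± 0.43 and was not called (adjusted p = 0.0849, 0.703% called). The subtraction carries the error of 12 further arrays, and the SE grew to 0.43 with it. It also takes out any difference between the lines in their response to confluence. A call lost with it, here or below, is therefore no measure of the part of name style. Neither line was then called, at 1.56 in fat (adjusted p = 0.162) and 1.45 in lean (adjusted p = 0.0717), nor was the lower-reading probe set, at 1.80 ± 0.64 over both lines (adjusted p = 0.203).

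Before oleate was added, PLIN2 fell in steps from the isolated cells through the culture stages. Uncultured cells read 12.08, 12.26 and 11.11 in the fat line and 11.92, 11.48 and 12.11 in the lean line. Cultures at −12 h read 11.13, 11.06 and 10.51 in the fat line and 11.69, 11.03 and 10.96 in the lean line. Ranges of neighbouring stages over both lines overlapped between uncultured cells and −12 h and, by a narrow margin, between −12 h and 0 h, while the 0 h arrays (9.62 to 10.58) all lay below the uncultured arrays (11.11 to 12.26).

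The culture effect on PLIN2, 0 h minus uncultured, was −1.69 ± 0.21 (10.13 at 0 h, 11.83 uncultured, adjusted p = 6.61e-10 by limma). In this comparison 68.9% of probe sets were called. Cultures at −12 h stood 0.76 below uncultured cells (−0.76 ± 0.21, adjusted p = 0.00115, 67.2% called), and cultures at 0 h stood below −12 h by a further −0.93 ± 0.21 (adjusted p = 0.00127, 15.2% called). In both comparisons the fat −12 h arrays have names with a low bar, unlike all the other arrays. PLIN2 averaged 10.90 at −12 h and 10.15 at 0 h in the fat line, and 11.23 and 10.12 in the lean line. Between these stages 14% of probe sets were called in the fat line and 1.9% in the lean line. Of 36 spike-in probe sets 9 were lower at 0 h than at −12 h (median −0.09). The part of name style in these steps was not tested. The lower-reading probe set fell by 2.34 ± 0.31 in the culture effect (adjusted p = 5.61e-09), by 1.31 between uncultured and −12 h (adjusted p = 0.000265) and by 1.04 in the confluence effect (adjusted p = 0.0173). That last call was lost without fat 0 h replicate 3, lean 0 h replicate 1 or lean −12 h replicate 1, with values of −1.18 to −0.85 over single arrays left out.

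On that probe set uncultured cells read 10.69, 9.91 and 9.49 in the fat line and 10.04, 9.30 and 9.90 in the lean line. At −12 h it read 9.06, 8.97 and 8.22 in the fat line and 8.88, 8.07 and 8.28 in the lean line. At 0 h it read 8.23, 7.87 and 6.92 in the fat line and 7.004, 7.50 and 7.73 in the lean line. The uncultured arrays stood clear above both culture stages, and the −12 h and 0 h ranges overlapped only slightly. Oleate cultures at 12 h, set against uncultured cells, differed by −0.19 on the representative PLIN2 probe set (adjusted p = 0.416, 69.5% called, 11.63 in oleate at 12 h and 11.83 uncultured), and by −1.01 on the other (adjusted p = 0.00381). The 2 probe sets thus gave different answers on whether PLIN2 after 12 h of oleate stood below uncultured cells. The comparisons with uncultured cells other than the culture effect, and that of 120 h with 0 h, were added after values were seen.

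Markers of other cell types also differed between culture and isolated cells. In the culture effect 44% of all genes tested were higher and 29.7% lower. The cell type in the labels calls for stromal and preadipocyte markers, of which 12 of 15 listed were tested. Their array means were 9.07 to 9.73 with oleate, 9.48 to 9.85 in control, 9.33 to 9.83 at 0 h and 10.04 to 10.42 in uncultured cells. Levels within the list were uneven. With oleate COL1A1 averaged 13.33, ENG 5.16 and PDGFRA 4.71, and in control PDGFRA averaged 4.29, near the array median. DLK1 was on the array but not tested. In the culture effect 9 of these 12 were lower and 1 higher. Of 13 tested adipocyte markers, 8 were lower and 2 higher at 0 h than in uncultured cells, and the array mean of the list ran from 6.88 to 7.61 at 0 h and from 8.18 to 8.94 in uncultured cells. The adipocyte hormone adiponectin (ADIPOQ), a defining marker, read 5.15, 4.40 and 3.65 in fat and 4.54, 4.76 and 4.55 in lean cultures at 0 h, and 9.29, 7.69 and 8.33 in fat and 9.004, 10.09 and 8.58 in lean uncultured cells. Of 14 tested macrophage markers 12 were lower and none higher, with array means of 6.90 to 8.01 at 0 h and 9.59 to 10.17 in uncultured cells, and MRC1 was at the floor of 1.61 on 6 of 6 arrays at 0 h.

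The lists of blood and vessel cells were lower in culture as well. Of 9 endothelial markers 9 were lower, with array means of 4.57 to 5.06 at 0 h and 6.53 to 7.49 in uncultured cells. Of 8 lymphocyte markers 6 were lower, with 3.21 to 3.71 at 0 h and 5.86 to 7.12 in uncultured cells, and CD4 was at the floor on 5 of 6 arrays at 0 h. Of 4 erythroid markers 3 were lower, with 2.17 to 2.66 at 0 h and 6.17 to 7.92 in uncultured cells, and the haemoglobin gene HBA1 was at the floor on 4 of 6 arrays at 0 h and averaged 10.68 in uncultured cells. Of 8 listed skeletal muscle markers only 2 were tested, ACTA1 and MYH1E. Both were higher, with array means of 8.46 to 9.77 at 0 h and 4.22 to 5.05 in uncultured cells. MYOD1, MYF5, MYOG, TNNC2 and MYLPF were on the array but not tested, so these values do not identify muscle cells. Of 3 tested mesothelial markers 1 was higher and 1 lower. Of the 36 spike-in probe sets 32 were lower at 0 h than in uncultured cells (median −0.62). In the confluence effect, where 7.44% of genes were lower, 5 of the 13 adipocyte markers and none of the 14 macrophage markers were. The part of these cell types in the fall of PLIN2 was not tested.

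Marker lists moved with oleate too, beside 15.6% of genes higher and 19.2% lower in the oleate effect. Of 14 macrophage markers 11 were higher and none lower (median 0.88, array means 4.67 to 7.71 with oleate and 4.05 to 7.54 in control, MRC1 at the floor on 24 of 24 oleate and 23 of 24 control arrays). Of 12 stromal and preadipocyte markers 2 were higher and 8 lower (median −0.12), and of 13 adipocyte markers 4 were higher and 2 lower, with array means of 6.63 to 7.91 with oleate and 6.28 to 7.38 in control. In oleate at 12 h against 0 h, where 0.491% of genes were higher and 0.128% lower, 3 of 13 adipocyte markers were higher and none of the 14 macrophage or 12 stromal markers was called (medians −0.42 and −0.02). The part of these lists in the PLIN2 rise was not tested.

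Between the lines, PLIN2 was called higher in fat than in lean cultures after 0 h on its representative probe set alone. In control culture it averaged 9.64 in the fat line and 9.18 in the lean line (0.46 ± 0.15, adjusted p = 0.0258 by limma, 16.1% of probe sets called), and fat arrays lay clear above lean arrays at 3 of 4 hours. In oleate culture it averaged 11.55 in the fat line and 10.99 in the lean line (0.56 ± 0.15, adjusted p = 0.00537, 15.3% called), with the lines clear of each other at 1 of 4 hours. The lower-reading probe set did not share this: its fat minus lean difference was −0.10 in control (adjusted p = 0.802) and 0.33 in oleate (adjusted p = 0.358). On it fat arrays lay clear above lean arrays at 0 of 4 hours, in control and in oleate alike. The share of all probe sets that stand clear between the lines was not counted. The control call on the representative probe set was lost without lean control 120 h replicate 1 (adjusted p = 0.0539, with 0.42 to 0.51 over all single arrays left out), and with the culture series (line, treatment and replicate number) as a random block (adjusted p = 0.1). Of 14 macrophage markers, 5 were higher in fat than in lean control cultures, where 7.4% of all genes tested were higher. In oleate cultures 1 of them was higher, where 6.71% of genes were, so that count is close to background. Of 36 spike-in probe sets none was called in control and 36 were lower in fat than in lean oleate cultures. The part of these markers and spike-ins in the line differences was not tested. Whether the arrays of a line came from separate pools is not given. These p-values therefore measure the spread between arrays and may not hold for the lines at large.

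Before oleate no line difference in PLIN2 was called. The fat minus lean values were −0.02 in uncultured cells (adjusted p = 0.989, 2.85% called), −0.33 at −12 h (adjusted p = 0.753, 1.12% called) and 0.03 at 0 h (adjusted p = 0.976, 8.08% called). On the other probe set they were 0.28, 0.34 and 0.26, none of them called. In uncultured cells 30 of 36 spike-in probe sets were higher in fat than in lean (median 0.94), and their part in the uncultured values was not tested. Within control culture PLIN2 changed by −0.23 between 12 and 120 h (adjusted p = 0.548, 9.36% called), and within oleate culture by −0.49 ± 0.21 (adjusted p = 0.109, 13.3% called). The lower-reading one gave 0.06 in control (adjusted p = 0.937) and −0.94 in oleate (adjusted p = 0.0358). The oleate call on that probe set was lost without any 1 of 8 arrays, with −1.13 to −0.73. Without lean oleate 120 h replicate 3 the representative probe set was called as well (adjusted p = 0.0186), with −0.70 to −0.28 over the single arrays left out.

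In the order of group means PLIN2 was highest in lean uncultured cells (11.84) and lowest in lean control culture at 120 h (9.14). Of the 21 pairs of neighbouring groups in this order, 20 overlapped in their arrays, and the single clear step was fat control culture at 120 h above lean control culture at 12 h. On the lower-reading PLIN2 probe set 21 of 21 neighbouring pairs overlapped. Sorting groups by their own means favours such overlap, and 21 of 21 pairs also overlapped on the CIDEC and on each PLIN1 probe set. The count is therefore no trait of PLIN2. By condition, the median over arrays was 11.38 with oleate, 9.39 in control, 10.27 at 0 h, 11.05 at −12 h and 12.00 in uncultured cells.

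CIDEC, the droplet fusion gene, was not called in the oleate effect, nor in the other comparisons given here. In fat-line oleate cultures it read 7.29, 7.46 and 7.13 at 12 h, 6.82, 6.54 and 6.71 at 24 h, 6.64, 6.19 and 6.76 at 72 h, and 6.38, 6.45 and 7.23 at 120 h. In fat-line control cultures it read 7.03, 6.30 and 6.88 at 12 h, 7.39, 5.68 and 6.35 at 24 h, 6.78, 6.02 and 6.23 at 72 h, and 6.89, 6.92 and 6.91 at 120 h. At 12 h the fat oleate arrays stood just above the fat control arrays, and at the later hours the groups overlapped. In lean-line oleate cultures it read 6.77, 6.99 and 6.57 at 12 h, 6.74, 6.35 and 6.95 at 24 h, 6.60, 6.55 and 6.34 at 72 h, and 6.45, 6.61 and 7.19 at 120 h. In lean-line control cultures it read 6.74, 6.95 and 6.82 at 12 h, 6.96, 6.83 and 7.07 at 24 h, 7.14, 5.91 and 6.98 at 72 h, and 7.07, 7.42 and 8.10 at 120 h. The lean groups overlapped at all 4 hours, and the highest CIDEC value of the series, 8.10, was in a lean control array at 120 h.

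Averaged over lines and hours, CIDEC stood at 6.74 with oleate and 6.81 in control, a difference of −0.07 ± 0.10 (95% interval −0.27 to 0.13, adjusted p = 0.637 by limma). The interval lies wholly below the 1.65 that is the lower bound for PLIN2. The effect was 0.19 in the fat line (adjusted p = 0.365) and −0.32 in the lean line (adjusted p = 0.105), and the fat minus lean difference between these was 0.51 ± 0.20 (adjusted p = 0.187). The lean value was called without lean control 72 h replicate 2 (adjusted p = 0.0256, −0.42 to −0.25 over single arrays left out), and with array weights (−0.39, adjusted p = 0.0098). By hour the values at the ends of the range were 0.56 in the fat line at 12 h (adjusted p = 0.274) and −0.78 in the lean line at 120 h (adjusted p = 0.115). With array weights the lean 120 h value was −0.9985 and was called (adjusted p = 0.000461). In oleate at 12 h against 0 h CIDEC differed by 0.19 (adjusted p = 0.853).

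**Figure D3:**
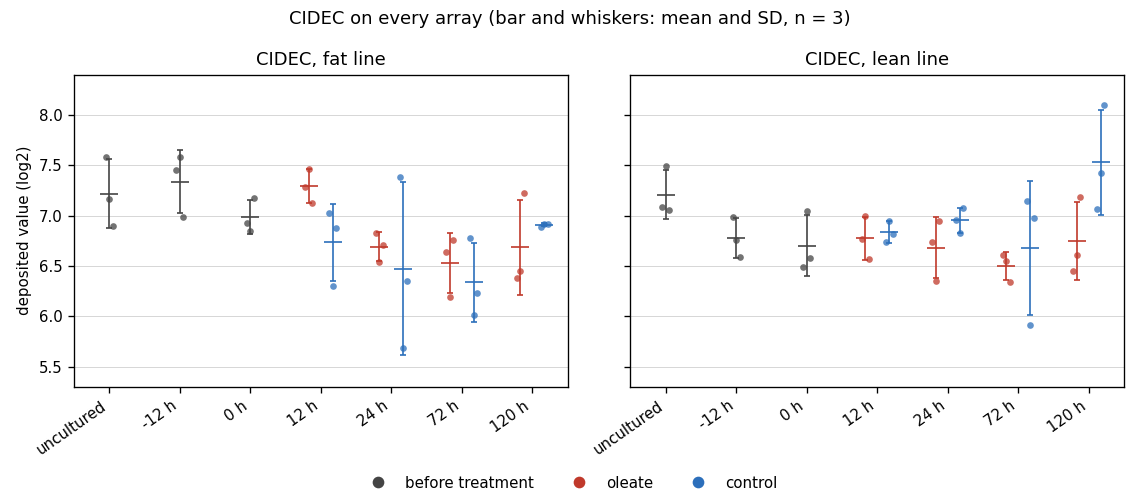
CIDEC level (log2) on every array in each of the 22 groups, fat line beside lean line, with the stage or hour along the horizontal axis and oleate left of control at each hour. Points are single arrays, and bars with whiskers are group means with the SD (n = 3); all 66 arrays lie between 5.68 and 8.10, and oleate and control arrays overlap in 7 of 8 pairs of groups.

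Over the culture stages no CIDEC difference was called. Uncultured cells read 7.58, 7.17 and 6.90 in the fat line and 7.08, 7.49 and 7.06 in the lean line. Cultures at −12 h read 7.45, 7.58 and 6.98 in the fat line and 6.98, 6.76 and 6.59 in the lean line. Cultures at 0 h read 6.93, 6.85 and 7.18 in the fat line and 6.49, 7.04 and 6.57 in the lean line. The 3 stages overlapped in the fat line, and in the lean line the uncultured arrays stood just above both culture stages. The culture effect was −0.37 ± 0.20 (adjusted p = 0.1) and the confluence effect −0.22. Between the lines CIDEC averaged 6.61 in fat and 6.999 in lean control culture (−0.38 ± 0.14, adjusted p = 0.0575), a difference that was called without any 1 of 5 arrays, with values of −0.50 to −0.29. These were replicate 1 of fat control culture at 12, 24 and 72 h, lean control 72 h replicate 2 and lean control 120 h replicate 1. In oleate culture the fat minus lean difference was 0.12 (adjusted p = 0.63), in uncultured cells 0.01, at −12 h 0.56 (adjusted p = 0.437) and at 0 h 0.28. Between 12 and 120 h CIDEC changed by 0.43 in control (adjusted p = 0.181) and by −0.32 in oleate (adjusted p = 0.328).

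PLIN1, the adipocyte perilipin, had means below the array median on all 4 of its probe sets, and the probe sets disagreed. They are told apart here by their means over all arrays, which were 3.49, 2.95, 1.91 and 1.77. Values below the floor of 1.61, the 20th percentile of the arrays, have no order. The probe set of mean 1.77 was at the floor on 38 of 66 arrays. In uncultured cells it read 5.99, 1.70 and 5.52 in the fat line and 5.68, 6.04 and 3.53 in the lean line, and it was above the array median on 4 of these 6 arrays. On the 60 arrays of cultured cells it was above the array median on 0, and the highest reading was 4.02. It did not pass the filter on low values, because in neither line did all 3 uncultured arrays exceed the median.

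Fitted without that filter, the culture effect on this probe set was −2.91 ± 0.52 (1.83 at 0 h, 4.74 uncultured, adjusted p = 4.29e-06 by limma). The size depends on the floor, at which 4 of 6 arrays lay at 0 h. The other probe sets did not show this fall: without the filter the culture effect was −0.22 on the probe set of mean 3.49 (adjusted p = 0.812) and −0.21 on that of mean 1.91 (adjusted p = 0.465), and the tested one, of mean 2.95, gave −0.55 ± 0.57 (adjusted p = 0.394). ADIPOQ was lowest on the same uncultured array, fat replicate 2, as the PLIN1 probe set of mean 1.77, at 7.69 among 7.69 to 10.09. The orders differed elsewhere: fat replicate 3 read 8.33 for ADIPOQ and 5.52 for PLIN1, and lean replicate 3 read 8.58 and 3.53. The other adipocyte markers were not set beside PLIN1 array by array, and a link between ADIPOQ and PLIN1 was not tested.

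**Figure D4:**
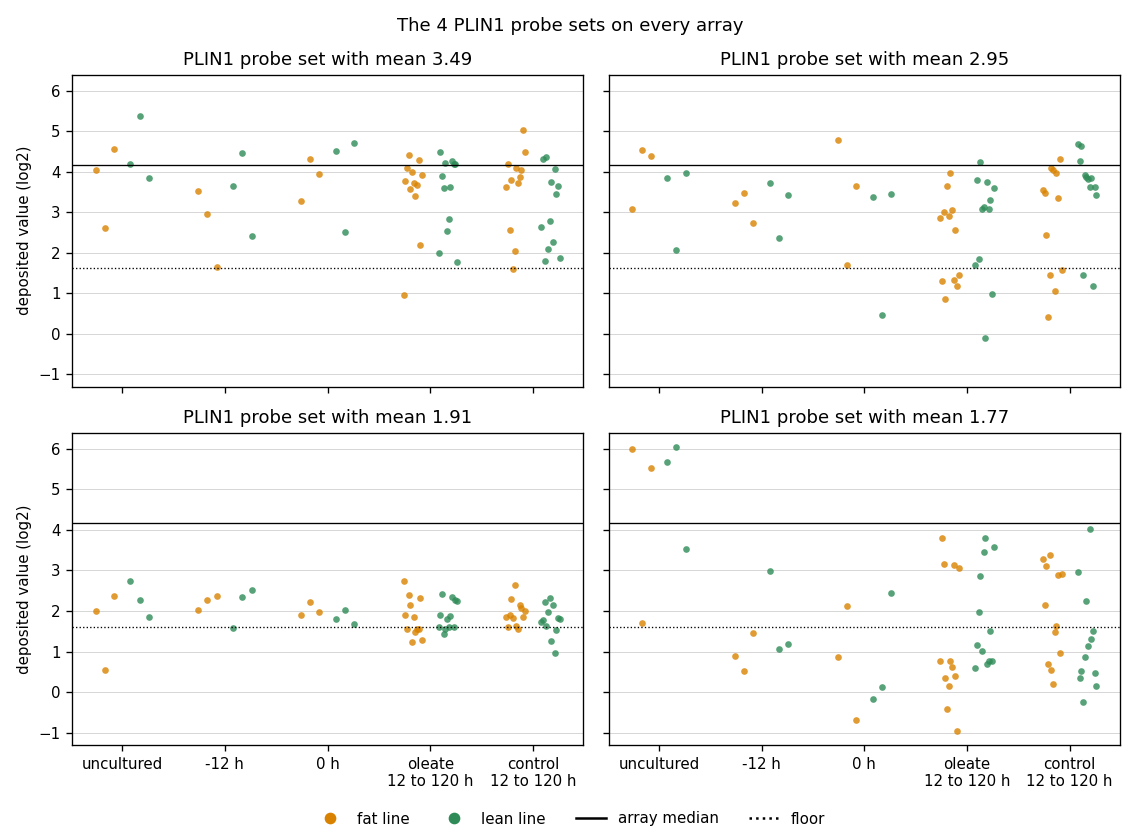
Levels (log2) of the 4 PLIN1 probe sets on every array by condition, with the fat line left of the lean line and all hours of oleate left of all hours of control. Points are single arrays before the floor was applied, and the solid and dotted lines mark the array median of 4.17 and the floor of 1.61; the probe set of mean 1.77 reads up to 6.04 in uncultured cells and at most 4.02 in culture.

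In culture no PLIN1 probe set was called between oleate and control. The probe set of mean 2.95 was tested only through the lean control arrays at 12 h, which read 4.69, 4.26 and 4.63. Its oleate effect was −0.58 ± 0.28 (2.70 with oleate, 3.27 in control, adjusted p = 0.112 by limma). Oleate arrays stood clear below control arrays in 1 of 8 pairs of groups, and that pair was lean 12 h, whose control arrays alone had let the probe set pass the filter, so neither the pair nor the sign of the effect is support for a fall. It was at the floor on 7 of 24 oleate arrays and 6 of 24 control arrays. That of mean 3.49, above the array median on 19 of 66 arrays, had an oleate minus control difference of 0.17. That of mean 1.91 was above the median on 0 of 66 arrays and that of mean 1.77 at the floor on 15 of 24 oleate arrays and 14 of 24 control arrays, so a PLIN1 response to oleate was not detectable on either.

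Relatives of the coat genes read low as well. Of 5 listed, PLIN3, PLIN5 and CIDEA have 4 probe sets, none of which passed the filter, and no probe set is named to PLIN4 or CIDEB alone. CIDEA, a fusion protein like CIDEC, was above the array median on 28 of 66 arrays (0.66 to 4.91). PLIN5, a coat of oxidative tissues in mammals, was so on 12 of 66, and both PLIN3 probe sets on 0 of 66.

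Other genes of droplet proteins were called in the oleate effect at a share close to that of all genes. Of 40 listed genes of droplet coats, formation, lipolysis, enzymes and tethers 24 were tested, of which 3 were higher and 4 lower in the oleate effect (median 0.01). Over all 10176 genes tested 15.6% were higher and 19.2% lower (median −0.03), so the droplet genes' count is close to that background. Among 15 enzymes and tethers 3 were higher and 2 lower. CAV1, a caveolar coat protein that also binds droplets, rose by 0.47 ± 0.09 (8.98 with oleate, 8.51 in control, adjusted p = 2.93e-05). LPCAT2, which makes phosphatidylcholine, rose by 0.22 ± 0.05 (adjusted p = 0.000166). PCYT1A, the rate-limiting enzyme of phosphatidylcholine synthesis, fell by 0.24 ± 0.06 (adjusted p = 0.0013), and RAB18, a droplet GTPase, fell by 0.12 ± 0.03 (adjusted p = 0.00264). Less the name style contrast none of these 4 was called: CAV1 gave 0.20 (adjusted p = 0.905), LPCAT2 0.53 (0.208), PCYT1A −0.50 (0.463) and RAB18 0.23 (0.563), the last with its sign turned.

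Of 4 genes of droplet formation 1 was lower in the oleate effect, GPAT4, an acyltransferase of glycerolipid synthesis (−0.20 ± 0.05, adjusted p = 0.000423). Of 5 lipolysis genes 1 was lower, PNPLA2, the adipose triglyceride lipase (−0.22 ± 0.07, 8.81 with oleate, 9.03 in control, adjusted p = 0.0139). Both calls were lost less the name style contrast, with −0.12 for GPAT4 (adjusted p = 0.889) and −0.25 for PNPLA2 (adjusted p = 0.842). In oleate at 12 h against 0 h 2 of the 24 droplet genes were higher and none lower, where 0.491% of genes tested were higher and 0.128% lower. Both were lipolysis genes. G0S2, which inhibits that lipase in mammals, rose by 1.02 ± 0.18 (11.97 in oleate at 12 h, 10.95 at 0 h, adjusted p = 0.00105), and PNPLA3, a lipase relative bound to droplets, rose by 0.56 ± 0.13 (adjusted p = 0.0202), a call lost without any 1 of 4 arrays. Against control cultures neither was called in the oleate effect. G0S2 differed there by 0.02 (11.85 with oleate, 11.83 in control, adjusted p = 0.892 by limma) and PNPLA3 by 0.08 (8.34 and 8.27, adjusted p = 0.387). Oleate at 12 h and 0 h also differ by 12 h in culture, so these 2 rises cannot be assigned to oleate.

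Several known targets of the PPARs rose with oleate. Of 12 tested, 8 were higher and none lower in the oleate effect (median 0.88), beside the 15.6% higher and 19.2% lower over all genes. ACSL1, FABP4 and CD36 are among these 8 and also among the 4 adipocyte markers that were higher, so the 2 lists overlap. ANGPTL4, a secreted inhibitor of lipoprotein lipase, rose by 1.52 ± 0.14 (8.15 with oleate, 6.63 in control, adjusted p = 2.05e-12). PDK4, a kinase that limits pyruvate oxidation, rose by 1.42 ± 0.12 (7.56 with oleate, 6.14 in control, adjusted p = 1.6e-13). ACSL1, which activates long-chain fatty acids, rose by 0.92 ± 0.08 (adjusted p = 1.82e-14), and HADHB, a subunit of the mitochondrial trifunctional protein, by 0.36 ± 0.04 (adjusted p = 8.79e-10). In oleate at 12 h against 0 h 2 of 12 were called, with rises of 0.44 ± 0.08 in HADHB (adjusted p = 0.00292) and 0.60 ± 0.15 in ACSL1 (adjusted p = 0.0476). The ACSL1 call was lost without any 1 of 10 of the 12 arrays. These 2 rises also span 12 h in culture and by themselves cannot be assigned to oleate. Of 8 regulators 2 were higher and 1 lower: PPARG, the main adipogenic PPAR, by −0.26 ± 0.09 (adjusted p = 0.0175), PPARA by 0.20 ± 0.07 (adjusted p = 0.0342) and CEBPB by 0.17 ± 0.06 (adjusted p = 0.0355). Less the name style contrast ANGPTL4 (2.33, adjusted p = 0.0428) and ACSL1 (1.73, adjusted p = 0.00273) stayed called, while PDK4 (1.19, 0.343), HADHB (0.58, 0.1), PPARG (−0.27, 0.871), PPARA (0.32, 0.792) and CEBPB (−0.11, 0.929, its sign turned) were not.

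**Figure D5:**
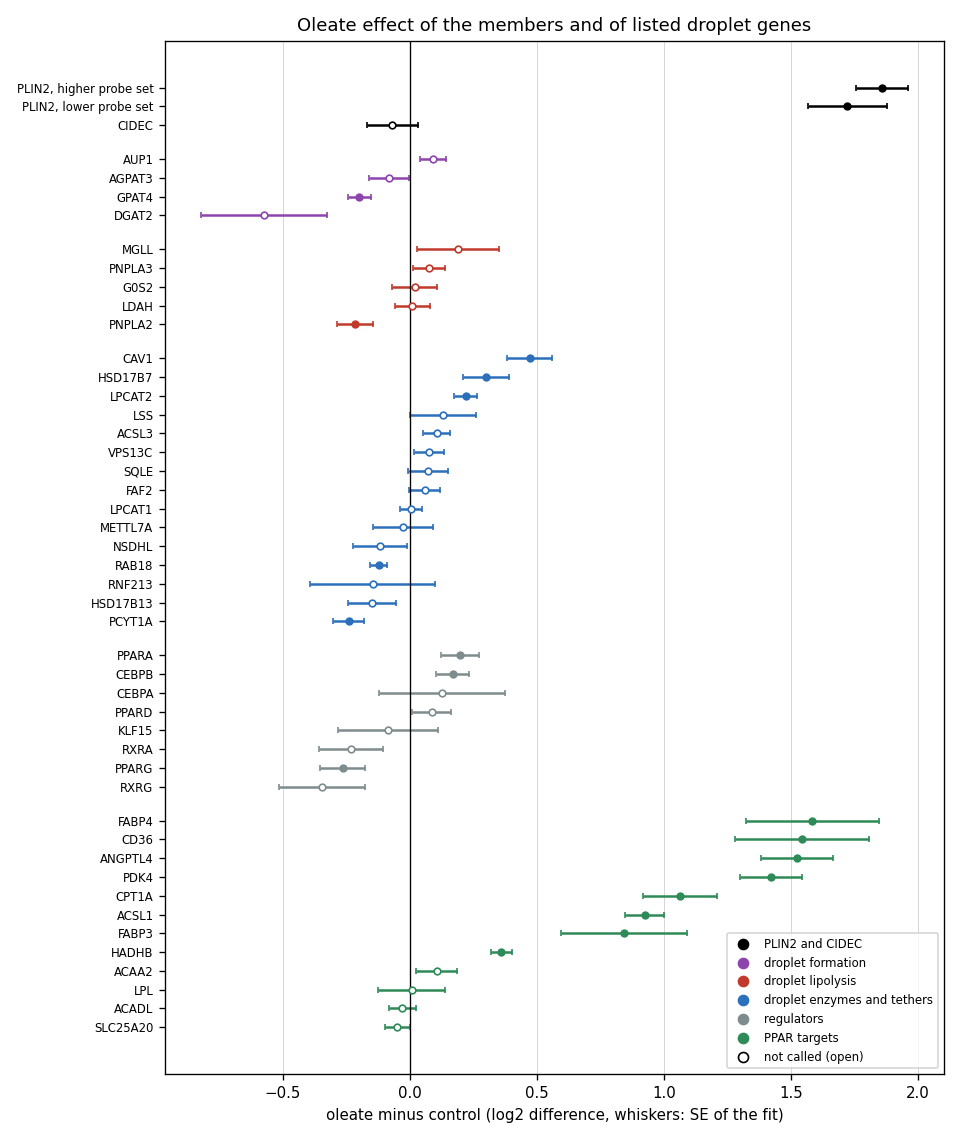
Oleate effect (oleate minus control, log2 difference with whiskers of 1 SE of the fit) of the 2 PLIN2 probe sets, CIDEC and the tested genes of each list, 1 gene a row and 1 colour a list. Filled points were called and open points were not; PLIN2 lies at 1.86 and 1.72, CIDEC at −0.07, and of the 24 droplet genes 3 are filled right of 0 and 4 left of it.

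During culture the droplet genes split. Of the 24, 11 were higher and 10 lower in the culture effect (median 0.10), against 44% of genes higher and 29.7% lower. Lipolysis genes were on the lower side, 4 of 5: MGLL, the monoglyceride lipase, fell by 2.09 ± 0.32 (adjusted p = 1.82e-07), PNPLA2 by 1.27 ± 0.14 (adjusted p = 4.24e-11), PNPLA3 by 0.60 ± 0.13 (adjusted p = 5.68e-05) and G0S2 by 0.56 ± 0.18 (adjusted p = 0.00519). Of the 15 enzymes and tethers 9 were higher and 5 lower, and the 4 with the smallest p were all higher. Among them the sterol synthesis enzymes NSDHL, LSS and SQLE rose by 3.08 ± 0.21, 2.62 ± 0.26 and 2.02 ± 0.16, and LPCAT2 by 1.51 ± 0.09.

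Of 4 droplet formation genes AGPAT3 was lower in the culture effect (−0.52 ± 0.16, adjusted p = 0.00274), and GPAT4 (0.24 ± 0.09, adjusted p = 0.0164) and AUP1 (0.27 ± 0.10, adjusted p = 0.0171) were higher. Of all genes tested 44% were higher and 29.7% lower in this comparison, so calls by themselves are common in these lists. All 8 regulators were called, 6 lower and 2 higher. PPARG fell by 2.24 ± 0.18 (7.24 at 0 h, 9.48 uncultured), CEBPA by 3.18 ± 0.49 and PPARD by 2.79 ± 0.15, while RXRG, a partner of the PPARs, rose by 2.60 ± 0.34. Of 12 PPAR targets 7 were lower and 2 higher: PDK4 fell by 5.23 ± 0.25 (7.004 at 0 h, 12.23 uncultured), FABP3 by 3.24 ± 0.50 and ACSL1 by 1.98 ± 0.15, and ACAA2 rose by 2.11 ± 0.16. PLIN2 fell in the same comparison, as did most of the adipocyte and macrophage markers given above. The adipocyte list shares PPARG, CEBPA, ACSL1 and PNPLA2, among others, with the lists given here.

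The patterns most like those of the members were found by correlating group means with those of 9781 other genes, as a description over 22 groups that share platform and normalization. For PLIN2 they were GAPVD1 (r 0.911), ANKHD1 (0.910), MARCH6 (0.906), PDS5A and TSTD1 (0.899 each). GAPVD1 had mean levels of 8.28 uncultured, 7.69 at 0 h, 7.96 with oleate and 6.29 in control. Without the uncultured groups the nearest to PLIN2 were ACSL1 (0.942), ANGPTL4 (0.935), PLCB1 (0.93), SELENOI (0.926) and GAPVD1 (0.905). The identity of the nearest genes thus depends on those 2 groups. It depends on the measure as well, since by rank (Spearman) correlation over the 22 groups GAPVD1 ranked 37. The lower-reading probe set was nearest to TPRN (0.927), ACSL1 (0.926), PANK3 (0.894), BAIAP2L1 (0.888) and S100A12 (0.887). Without the uncultured groups its nearest 5 were SELENOI (0.950), GJA1 (0.902), SMAD6 (0.898), HSPA4L (0.89) and BAIAP2L1 (0.888), with neither ACSL1 nor ANGPTL4 among them. CIDEC had weaker likenesses, with RASL10A at 0.744, THAP4 at 0.742, NSMCE4A at 0.740, MOB3A at 0.713 and ARC at 0.711. Its nearest 5 without the uncultured groups were PDCD2 (0.77), SLC4A1 (0.76), WTAP (0.76), POLR2F (0.76) and GFER (0.75), with none of the former 5 among them. The correlation of CIDEC with PLIN2 was 0.124 on the representative probe set and 0.42 on the lower-reading one. Without the uncultured groups these were −0.05 and 0.25. For the tested PLIN1 probe set, which was at the floor on 14 arrays, the nearest were ABCB8 (0.749), RTN1 (0.715), MGP (0.661), CCDC32 (0.657) and TTC7B (0.651). Its nearest 5 without the uncultured groups were CCDC32 (0.76), ABCB8 (0.76), ROMO1 (0.75), MSRB1 (0.75) and CCDC50 (0.74).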

How the data were processed

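RNA from 66 preadipocyte samples was measured on Affymetrix chicken arrays from 6 µg of total RNA each, per the labels' protocols. The deposited table gives a single value per probe set and array. The submitters' processing notes name MAS5, with neither version nor role; other steps are not given in the sources used here. The deposited values span −5.232 to 13.51, share a median of 4.17 and, once sorted, differ by at most 0.0615 between arrays; on this evidence alone the deposited values were read as log2, made by the authors in steps that the labels do not record, and another base would rescale every difference. Precision is limited by the number of arrays.

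Values were floored at 1.613 (20th percentile). The 96 control probe sets, poly-A spike-ins included, were fitted and adjusted apart. The platform annotation named 1 gene for 27178 probe sets, several for 177 and none for 11180; symbols were updated through RefSeq gene IDs. The 22060 probe sets above the array median on all 3 arrays of a group were tested in one limma model (3.58.1, R 4.3.3, data.table version 1.17.8, statmod 1.5.0) of 22 group means (44 residual degrees of freedom, trended and robust prior with a median of 5.79 degrees of freedom), two-sided, with Benjamini-Hochberg adjustment. Replicate numbers come from the labels. Deviations of same-numbered arrays from their group means correlated above 0.1 in 6 of 6 pairs between oleate at 12 h and 0 h (0.177 to 0.365), in 5 of 6 between 0 h and −12 h and between 120 and 12 h of control, in 4 of 6 between 120 and 12 h of oleate and in 1 of 6 between 0 h and uncultured cells. By the rule that every pair must pass, the numbers pair only the first of these. The correlations between 120 and 12 h were still all positive (0.071 to 0.217 in control, 0.05 to 0.193 in oleate). The fit takes arrays of different hours as independent, so errors of averages over the hours may be too small. Errors are standard errors of the fit. The limma step was tested on simulated data.

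The oleate effect is oleate minus control over both lines and 4 hours, the culture effect sets 0 h against uncultured cells, the confluence effect sets 0 h against −12 h, and line differences are fat minus lean. The text names every PLIN1, PLIN2 and CIDEC probe set, up to 4 called genes per list and comparison by smallest p, and the 5 most alike genes per member. Members and lists were chosen with earlier results of these data known, so no pattern here is independent support. Alternatives were no filter, a stricter filter, another floor, no floor, the lower-reading PLIN2 probe set, array weights, a replicate block, the culture series as a random block, no trend in the prior, arrays centred on their medians, only the groups compared, and each array left out.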

Additional observations from a re-analysis of the deposited data

How the results depend on the processing

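Of 26 main results (PLIN2 on its representative probe set and CIDEC, each in 13 comparisons), 12 kept their direction and their side of the threshold under every other setting and 20 did so without any 1 array; the cause of the changes below was not tested. The replicate numbers did not pair oleate with control arrays or the lines: of 24 oleate and control pairs with the same number, line and hour 4 correlated above 0.1 in their deviations from group means (−0.159 to 0.276), and of 33 fat and lean pairs 9 did. Of 30 pairs from 2 stages of a line 21 did, but every pair only between oleate at 12 h and 0 h. With the replicate block the PLIN2 oleate effect stayed at 1.86 and the only main result that changed its call was the CIDEC line difference in control (−0.38, adjusted p = 0.0498 by limma). Less the name style contrast, an alternative chosen after seeing the data, the oleate effect was 1.503 for PLIN2 (adjusted p = 0.0849) and 0.21 for CIDEC, with 155 probe sets called against 7726; of 13 named genes called in the oleate effect 2 stayed called, 9 lost the call and 2 changed sign (RAB18 0.23, CEBPB −0.11). Array weights gave called CIDEC values for the line difference in the oleate effect (0.53), the change of that effect with time (−0.98), the line difference in control (−0.41), time in oleate (−0.56) and the oleate effect in the lean line (−0.39) and there at 120 h (−0.9985), turned the CIDEC line difference in uncultured cells to −0.054, and gave −0.48 for PLIN2 time in oleate (adjusted p = 0.0246). With the culture series as a random block the PLIN2 line difference in control was 0.46 (adjusted p = 0.1) and time in oleate −0.49 (adjusted p = 0.0371), and PPARG lost its oleate call (adjusted p = 0.0724). With only the groups compared, the CIDEC culture effect was −0.37 (adjusted p = 0.0485), and the PLIN2 calls at lean 24 h (0.0507), at lean 120 h (0.148) and in fat oleate at 12 h against 0 h (0.105) were lost; the lean rise at 12 h against 0 h was called with array weights (0.00284) and the random block (0.0221). The other PLIN2 probe set gave −0.10 and 0.33 for the line difference in control and oleate, 0.28 in uncultured cells, 0.34 at −12 h, 0.059 for time in control and −0.94 for time in oleate; on it array weights turned the line difference in control to 0.013 and time in control to −0.055.

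Without 1 array at a time the PLIN2 line difference ran from 0.42 to 0.51 in control, from −0.24 to 0.34 in uncultured cells and from −0.19 to 0.30 at 0 h, and PLIN2 time in oleate from −0.70 to −0.28. CIDEC ran from −0.50 to −0.29 for the line difference in control and from −0.18 to 0.17 in uncultured cells. The other PLIN2 probe set ran from −0.20 to 0.019 for the line difference in control, −0.045 to 0.55 in uncultured cells, −0.018 to 0.64 at 0 h, and −0.058 to 0.19 for time in control. Its oleate calls in the fat line at 24, 72 and 120 h and in the lean line at 24 h were lost without any 1 of 2, 2, 4 and 2 arrays. The oleate calls of PPARA and CEBPB were lost without any 1 of 10 and 14 of 48 arrays, and the culture calls of GPAT4 and AUP1 without any 1 of 2 and 3. With a 40th-percentile floor the tested PLIN1 probe set was called in the oleate effect (−0.22, adjusted p = 0.0321), but it was tested only through lean control arrays that read high, so this call is no support for a fall.

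Counts of called probe sets moved by over 1.5 times in several comparisons. With array weights, the replicate block and the random block the line difference in the oleate effect had 2316, 645 and 36 calls against 409, and the change of that effect with time 647, 105 and 149 against 67 (44 with only the groups compared). The random block gave 1315 calls against 3541 for the line difference in control. Array weights and the random block gave 6165 and 1510 against 3371 for the line difference in oleate, and 3705 and 3366 against 2064 for time in control. Array weights and a fit of only the groups compared gave 272 and 8 against 629 for the line difference in uncultured cells, 436 and 110 against 246 at −12 h, and 2974 and 456 against 1782 at 0 h. Time in oleate had 6183 with array weights and 926 with only the groups compared, against 2930, and oleate at 12 h against 0 h had 438 with array weights against 121, with 82 (array weights) and 13 (only the groups compared) against 34 in the fat line and 29 and 0 against 4 in the lean line.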
